A study of Arabidopsis thaliana with 5 samples.

Results

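The genes described here are those whose transcripts were low on the array of Columbia replicate 1, set against every other array of clipped Arabidopsis thaliana. A probe set belonged to them when its deposited log2 value on Columbia replicate 1 lay at least 1 log2 unit, or 2-fold, below the lowest of the 4 other arrays. This rule picked 45 of 22746 probe sets, or 0.198%, and since these values chose the members, their low level on that array is a description and was given no test. The annotation tied 14 of the 45 to exactly 1 gene each, among them IRX15-L, GUT2, PME61, ATPMEPCRD, XTH19 and PPDK, and left 31 unnamed here.

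Expression was measured on 5 Affymetrix arrays of RNA labelled as secondary meristem, 3 from clipped Columbia plants and 2 from clipped Landsberg erecta plants. Columbia and Landsberg erecta are Arabidopsis lines, called ecotypes below, selected by the study because they compensate differently for damage. The plants of every group had been clipped at bolting to mimic browsing by mammals, were grown in a greenhouse from seed given 3 days of cold, with 16 h of light and 8 h of dark a day, and were sampled the day after clipping. The labels state neither plant age nor whether RNA of several plants was pooled, and the p-values below therefore measure the spread between these arrays only.

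Cell walls of growing stems are laid down in stages. While a cell elongates, its thin primary wall is loosened and rebuilt by enzymes that act on xyloglucan and pectin. Once elongation stops, fibres and xylem vessels add a thick secondary wall of cellulose, xylan and lignin, which gives the inflorescence stem its stiffness. Several of the named genes encode proteins of these steps.

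The arrays as a whole had similar distributions, with medians between 5.44 and 5.50 on the log2 scale. The value on Columbia replicate 1 was also 5.44, and 27.3% of its probe sets lay within 0.01 of the shared minimum of 2.15, against 27.3% to 27.8% on the other arrays. The log2 ratio of the 3 prime to the 5 prime end of a control is a sign of RNA integrity and labelling. For GAPDH it was 0.89, 0.92 and 0.98 on Columbia replicates 1 to 3, and 1.25 and 1.22 on Landsberg erecta replicates 1 and 2. For ubiquitin it was 0.88, 0.73 and 0.94 on Columbia replicates 1 to 3, and 0.90 and 0.85 on Landsberg erecta replicates 1 and 2. Of 7 listed shoot meristem genes 2 had a probe set tied to them by name, CLV3 and LAS. Both sat at the shared minimum on all 5 arrays, so these markers of the labelled tissue were absent from the measured signal.

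The 2 named genes of xylan synthesis in the set were IRX15-L and GUT2. Xylan is the main hemicellulose of secondary walls in Arabidopsis stems. IRX15-L (AT5G67210) is required, redundantly with its close relative IRX15, for normal xylan in those walls. Its log2 value was 5.02 on Columbia replicate 1, against 7.09 and 8.83 on Columbia replicates 2 and 3 and 8.19 and 8.09 on Landsberg erecta replicates 1 and 2. Columbia replicate 1 was thus 2.07 log2 units, or 4.19-fold, below the next lowest array, the largest distance among the 14 named genes. Columbia replicate 2 was itself the next lowest, by 1.01 below the lowest of the remaining 3 arrays.

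GUT2 (AT1G27440, also called IRX10) encodes a glycosyltransferase that builds the xylan backbone. It had 5.79 on Columbia replicate 1, against 6.88 and 8.27 on Columbia replicates 2 and 3 and 7.68 and 8.01 on the Landsberg erecta arrays. The order of the arrays was nearly that of IRX15-L, with Columbia replicate 1 lowest, Columbia replicate 2 next and Columbia replicate 3 highest. In bulk samples such as these, fewer cells of a type and less RNA per cell cannot be told apart.

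Among the other measured genes of xylan synthesis, IRX15 shared the order and GUT1 did not. IRX15 (AT3G50220) had 3.46 on Columbia replicate 1, against 3.76 and 5.15 on Columbia replicates 2 and 3 and 4.73 on both Landsberg erecta arrays. It missed the set because Columbia replicate 2 lay within 0.29 of Columbia replicate 1. GUT1 (AT5G61840), the close homologue of GUT2, had 8.52 on Columbia replicate 1, against 8.53 and 8.50 on Columbia replicates 2 and 3 and 8.21 and 8.48 on the Landsberg erecta arrays. Its lowest array was Landsberg erecta replicate 1, so this gene of the same step did not share the low level.

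Genes that modify pectin gave 2 more members. Pectin methylesterases remove methyl groups from pectin, which changes how it binds calcium and how firm the wall is. PME61 (AT3G59010, also called PME35) is known for its part in the mechanical strength of the Arabidopsis inflorescence stem. Its value was 6.25 on Columbia replicate 1, against 7.91 and 9.37 on Columbia replicates 2 and 3 and 8.48 and 9.13 on the Landsberg erecta arrays. ATPMEPCRD (AT2G43050), also named as a pectin methylesterase, had 3.36 on Columbia replicate 1, against 5.14 and 6.41 on Columbia replicates 2 and 3 and 5.64 and 5.87 on the Landsberg erecta arrays. Both genes had the same order of arrays as GUT2, and Columbia replicate 1 lay 3.17-fold and 3.43-fold below the next lowest array.

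The other measured genes named as pectin methylesterases were not in the set. PMEPCRF (AT5G53370) had 8.65 on Columbia replicate 1, against 9.69 and 10.14 on Columbia replicates 2 and 3 and 9.40 and 9.58 on the Landsberg erecta arrays, a distance of -0.75 from the lowest other array. ATPMEPCRB (AT4G02330) had 8.35 on Columbia replicate 1, against 8.43 and 8.09 on Columbia replicates 2 and 3 and 7.85 and 8.24 on the Landsberg erecta arrays. AT4G02300 sat at the shared minimum on every array, so it gives no order.

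XTH19 (AT4G30290) was the single member from the xyloglucan endotransglucosylase/hydrolases, enzymes that cut xyloglucan chains and join them again. In Arabidopsis it responds to auxin and has been tied to the healing of cut inflorescence stems. It had 4.06 on Columbia replicate 1, against 6.32 and 6.84 on Columbia replicates 2 and 3 and 6.24 and 6.01 on the Landsberg erecta arrays. Here Columbia replicate 2 was not low, and the 4 other arrays lay within 0.82 of each other, while Columbia replicate 1 was 1.95 below the lowest of them. Its close relatives XTH18 and XTH20 were at or near the shared minimum, with XTH18 at 2.34 on Columbia replicate 3 and 2.15 elsewhere. XTH32 was also lowest on Columbia replicate 1 but by less: it had 11.00 on Columbia replicate 1, against 11.37 and 11.51 on Columbia replicates 2 and 3 and 11.11 and 11.25 on the Landsberg erecta arrays.

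A gene of the microtubule cytoskeleton and a gene of carbon metabolism were also in the set. AT3G23090, also called WDL3, encodes a microtubule-associated protein known for its part in hypocotyl elongation. It had 4.90 on Columbia replicate 1, against 6.34 and 8.43 on Columbia replicates 2 and 3 and 7.57 and 7.59 on the Landsberg erecta arrays, the order also seen for GUT2. PPDK (AT4G15530) encodes pyruvate orthophosphate dikinase, which interconverts pyruvate and phosphoenolpyruvate. It had 4.65 on Columbia replicate 1, against 6.41 and 6.33 on Columbia replicates 2 and 3 and 6.54 and 7.07 on the Landsberg erecta arrays. PPDK differed from the wall genes in that Columbia replicate 3 was low rather than high among the 4 other arrays.

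The remaining 7 named members are known here by locus only. AT1G22480 had the largest distance of these, with 4.86 on Columbia replicate 1, against 6.78 and 9.00 on Columbia replicates 2 and 3 and 8.57 and 8.51 on the Landsberg erecta arrays. AT2G37750 had 3.39 on Columbia replicate 1, against 4.42 and 6.74 on Columbia replicates 2 and 3 and 5.63 and 5.93 on the Landsberg erecta arrays. For both, Columbia replicate 2 was itself more than 1 log2 unit below the 3 arrays other than Columbia replicate 1. AT3G22540, AT5G61340, AT1G67870, AT5G10770 and AT3G56230 lay between 2.05-fold and 2.54-fold below the next lowest array. Of these 5, AT5G10770 had the same value of 5.30 on Columbia replicate 2 and Landsberg erecta replicate 2, and the others had Columbia replicate 2 next lowest.

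**Figure D1:**
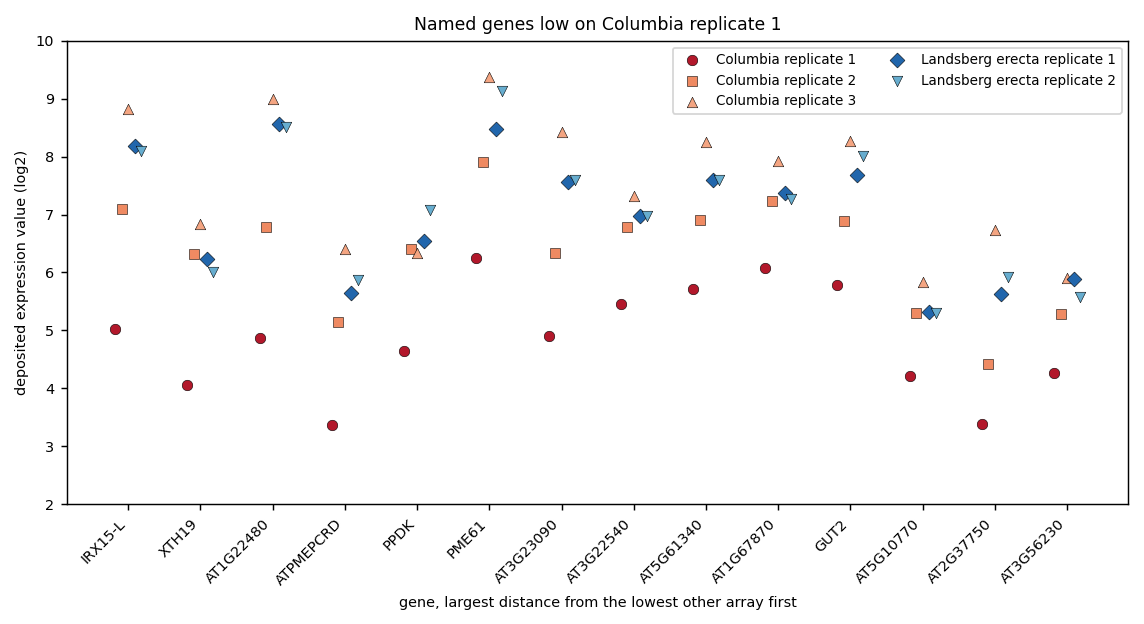
Deposited log2 values (vertical axis) of the 14 named genes (horizontal axis, ordered by the distance of Columbia replicate 1 from the lowest other array), with 1 point for each of the 5 arrays. Columbia replicate 1 is lowest for every gene because the rule selects for it; Columbia replicate 3 is highest for 13 of the 14, the exception being PPDK.

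The 31 unnamed probe sets held the 3 largest distances. Probe set 260326_at had 2.83 on Columbia replicate 1, against 5.01 and 7.77 on Columbia replicates 2 and 3 and 6.85 and 7.79 on the Landsberg erecta arrays. Probe set 262113_at had 4.42 on Columbia replicate 1, against 7.12 and 6.55 on Columbia replicates 2 and 3 and 7.40 and 7.93 on the Landsberg erecta arrays. Probe set 257233_at had 2.80 on Columbia replicate 1, against 4.90 and 7.55 on Columbia replicates 2 and 3 and 6.76 and 6.64 on the Landsberg erecta arrays. These 3 and IRX15-L were the 4 members at least 2 log2 units below the lowest other array. The median distance was -1.30 for the unnamed probe sets and -1.39 for the named ones. Probe set 261703_at was the 1 member within 0.01 of the shared minimum on Columbia replicate 1, so its distance of -1.13 may be cut short there.

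Distances over all 45 members ran from -2.18 to -1.01, with a median of -1.33, and went on without a gap across the threshold. Just inside lay 267094_at (-1.007), AT3G56230 (-1.032) and AT2G37750 (-1.035). Just outside lay the unnamed probe sets 251093_at (-0.999) and 258240_at (-0.997) and the named genes AT4G28290 (-0.982), MT1C (-0.949) and AT5G43150 (-0.948). MT1C is named as a metallothionein, a small metal-binding protein, and had 7.12 on Columbia replicate 1, against 8.17 on both other Columbia arrays and 8.40 and 8.07 on Landsberg erecta replicates 1 and 2.

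The name "low only on Columbia replicate 1" covers a gradient between the Columbia arrays for many members. The median log2 value of the 45 was 4.63 on Columbia replicate 1, 6.34 and 7.42 on Columbia replicates 2 and 3, and 6.76 and 6.98 on Landsberg erecta replicates 1 and 2. Columbia replicate 2 lay below Columbia replicate 3 and both Landsberg erecta arrays for 32 of the 45 members (71.1%), against 16.6% of the 15819 probe sets that varied over those 4 arrays. For 14 members (31.1%) that distance was at least 1 log2 unit, against 0.382% of all probe sets. IRX15-L, AT1G22480, AT3G23090 and AT2G37750 were the named genes among these 14. The arrays' differences among the 4 were not used by the rule as a contrast, but the rule asks for a spread between arrays, and these shares are descriptions with 1 array on a side.

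Columbia replicate 3 stood at the other end. It had the highest value of all arrays for 39 of the 45 members (86.7%), against 24.1% of the probe sets that varied over the 4 arrays, and for 7 members it was at least 1 log2 unit above the next (15.6%, against 0.453% of all probe sets). Columbia replicate 3 exceeded Columbia replicate 2 for 42 of the 45, by a median of 1.35. The Landsberg erecta arrays differed from each other by a median of 0.20 over the members, against 0.05 over all probe sets. The largest such difference of a member was 0.95. For 29 of the 45 members, Columbia replicate 2 lay below and Columbia replicate 3 above both Landsberg erecta arrays. The share of all probe sets was not computed for this count or for the 42, so both are descriptions only. In 7 of the 45 members at least 2 of the 4 other arrays had the same deposited value, against 60.3% of all probe sets. Many of all probe sets lay at the shared minimum, which the rule keeps members off on those 4 arrays. The contrast in tied values, and that in the Landsberg erecta differences, is therefore not between like probe sets.

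**Figure D2:**
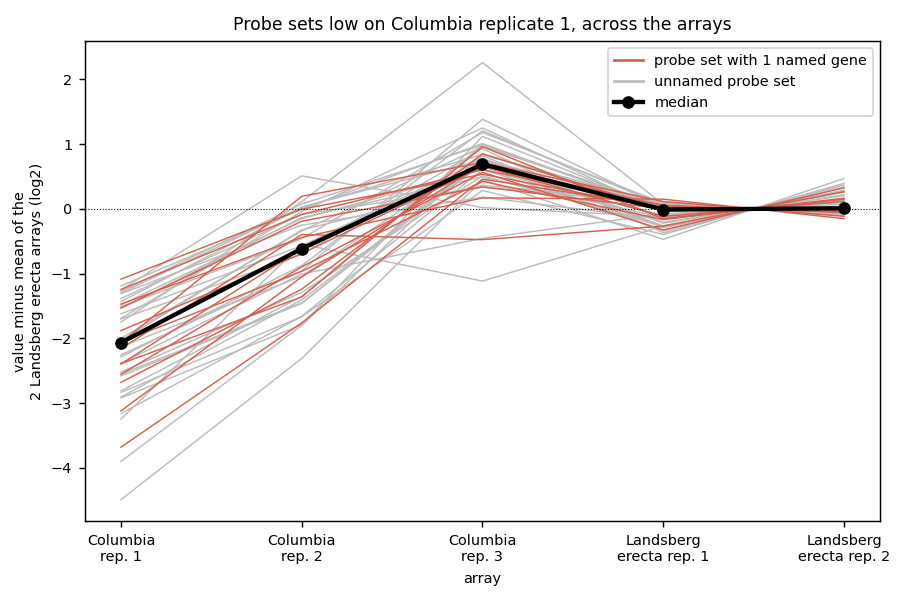
Each thin line is 1 of the 45 probe sets, drawn as its log2 value on each array (horizontal axis) minus its mean over the 2 Landsberg erecta arrays; the thick line is the median. The median lies at -2.07, -0.62 and 0.69 on Columbia replicates 1 to 3 and within 0.01 of 0 on the Landsberg erecta arrays.

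Other arrays had sets of their own under the same rule. Beside the 45 on Columbia replicate 1, 61 and 87 probe sets were low by at least 1 log2 unit on Columbia replicates 2 and 3 alone, and 5 and 3 on Landsberg erecta replicates 1 and 2 alone. In the other direction, 2 probe sets exceeded every other array by at least 1 log2 unit on Columbia replicate 1, against 11 and 95 on Columbia replicates 2 and 3 and 4 and 22 on the Landsberg erecta arrays. Among the 61 probe sets low on Columbia replicate 2 alone, Columbia replicate 3 was highest for 51. The next lowest array of these 61 was Columbia replicate 1 for 20, Columbia replicate 3 for 5, and Landsberg erecta replicates 1 and 2 for 19 and 17.

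**Figure D3:**
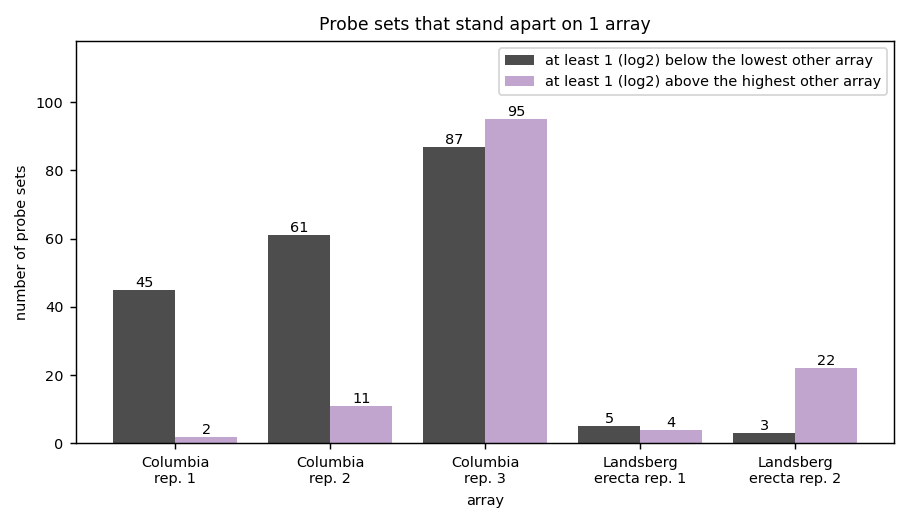
Number of probe sets (vertical axis) on each array (horizontal axis) at least 1 log2 unit below the lowest other array (dark bars) or above the highest other array (light bars). Columbia replicate 1 has 45 low and 2 high, and Columbia replicate 3 has 87 low and 95 high.

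Wall and stem genes beyond the members were read through 12 gene lists and 7 families. A gene counts as measured here only where a probe set was tied to it by name, and 6 lists and 1 family had no such gene. Together the lists and families held 58 probe sets, 5 of them in the set. On Columbia replicate 1, 7 of the 58 lay at least 2-fold below the mean of the 4 other arrays and 0 lay at least 2-fold above it, against 0.563% and 0.0484% of all probe sets. The 7 were IRX15-L, GUT2, IRX15, PME61, ATPMEPCRD, PMEPCRF and XTH19. IRX15 and PMEPCRF passed this distance through Columbia replicate 3, since without that array their differences were -0.94 and -0.91. The lists were written with the 3 wall genes of the rule in view, so the count is no independent evidence of their direction.

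The xylan list had 4 measured genes, with a median difference of -1.53 between Columbia replicate 1 and the mean of the other arrays, and the pectin methylesterases had 5, with a median of -1.05. The median over all 22746 probe sets was 0.000. Since members in the xylan list and among the pectin methylesterases were chosen for these same values, their medians are descriptions and support no direction. Of the 10 XTH genes, 4 sat at the shared minimum on all arrays and could show no drop, 4 were lower and 2 higher. Of the lower ones, XTH18 and XTH33 were so only through Columbia replicate 3, with 0.00 and 0.01 without it, while XTH19 and XTH32 stayed lower. The XTH genes ran from XTH19 at -2.29 to XTH16 at 0.22. Of 19 expansins, which loosen the primary wall, 8 were lower and 1 higher by more than 0.01, and none was 2-fold away. Of the other 10 expansins, 7 had 1 value on all 5 arrays. Without Columbia replicate 3, EXLA1 and EXPA8 were higher instead, at 0.03 and 0.11. EXLA2, within 0.01 with that array, was also higher without it, at 0.09. The other expansins counted as lower stayed lower. EXPA15 was the lowest expansin at -0.68. It had 7.60 on Columbia replicate 1, against 8.26 and 8.22 on Columbia replicates 2 and 3 and 8.23 and 8.42 on the Landsberg erecta arrays.

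The measured cellulose synthase-like genes, lignin genes and gibberellin receptors were not 2-fold lower by this measure. Only 2 of 20 listed lignin genes and 3 of 13 listed gibberellin genes were measured, and the rest could not be read. The 8 cellulose synthase-like genes lay between -0.13 and 0.04. HCT, which encodes an acyltransferase of monolignol synthesis, differed by -0.35, and AT5G66390, the other measured gene of the lignin list, by -0.11. The gibberellin receptor genes GID1A, GID1B and GID1C, whose proteins relay a hormone of stem elongation, lay between -0.17 and -0.06. No cellulose synthase gene of secondary walls, no secondary wall regulator of the list and no brassinosteroid gene was measured under a name.

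Markers of other tissues did not share the order of the wall genes. The anther and tapetum genes AMS and EMS1 (2 of 9 listed genes measured) had a summed level of 6.93 on Columbia replicate 1, 7.12 and 5.36 on Columbia replicates 2 and 3, and 6.54 and 7.47 on the Landsberg erecta arrays, on the log2 scale. Columbia replicate 3, highest for most members, was lowest for these. The green tissue genes RCA and LHCB4.1 (2 of 9 measured) summed to 15.26 on Columbia replicate 1, 15.27 and 15.23 on Columbia replicates 2 and 3, and 15.10 and 15.05 on the Landsberg erecta arrays. The 4 xylan genes, which mark stem vascular tissue in part, summed to 8.86 on Columbia replicate 1, 9.31 and 10.18 on Columbia replicates 2 and 3, and 9.68 and 9.84 on the Landsberg erecta arrays. GUT1 made up most of that sum on Columbia replicate 1. Without it, IRX15-L, GUT2 and IRX15 summed to 6.62 on Columbia replicate 1 and to 8.06 and 9.64 on Columbia replicates 2 and 3. On the Landsberg erecta arrays these genes summed to 9.03 and 9.12. The rule chose IRX15-L and GUT2 for low values on Columbia replicate 1, so both sums are descriptions and support no direction. Phloem and epidermis markers had 0 genes with a named probe set, so their levels could not be read. The part of tissue makeup in the low values was not tested.

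The ecotypes were compared without Columbia replicate 1, as Columbia replicates 2 and 3 minus Landsberg erecta replicates 1 and 2. The arrays compared also entered the rule, since the lowest of them set the distance of each member. No member was called higher or lower in Columbia by limma with Benjamini-Hochberg adjustment (0 of 45 in each direction, against 0% of all probe sets), and 0 of the 45 had an unadjusted p under 0.05, against 2.16% of all probe sets. The smallest unadjusted limma p of a member was 0.092. The fitted differences ran from -0.93 to 1.18 with a median of -0.02, beside 0.000 over all probe sets, and 22 were above and 23 below 0. Columbia replicates 2 and 3 both lay above both Landsberg erecta arrays for 3 members, XTH19, 266783_at and 262832_s_at (6.67%, against 6.77% of all probe sets). They both lay below for 3 others, PPDK, 262113_at and 250832_at (6.67%, against 6.13%). The rule asks for a spread between arrays and keeps members off the shared minimum on the arrays compared. The shares of members and of all probe sets are therefore not of like probe sets. Set side by side they are descriptions only. Of the 58 probe sets of the lists and families, limma called 0 between the ecotypes, and 2 had an unadjusted p under 0.05.

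The spread between Columbia replicates 2 and 3 made most intervals wide. IRX15-L averaged 7.96 ± 1.24 in Columbia and 8.14 ± 0.07 in Landsberg erecta (SD, n = 2 each), so that the fitted difference was -0.18 (95% interval -3.21 to 2.85, limma adjusted p = 1). GUT2 averaged 7.57 ± 0.98 in Columbia and 7.85 ± 0.24 in Landsberg erecta (SD, n = 2 each), and its difference had a 95% interval of -2.75 to 2.20 (limma adjusted p = 1). PME61 averaged 8.64 ± 1.03 in Columbia and 8.81 ± 0.46 in Landsberg erecta (SD, n = 2 each), and its difference had a 95% interval of -2.93 to 2.60 (limma adjusted p = 1). None of these wall genes differed between ecotypes by more than the spread between replicates.

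Genes with closer Columbia replicates gave narrower intervals. XTH19 averaged 6.58 ± 0.36 in Columbia and 6.12 ± 0.16 in Landsberg erecta (SD, n = 2 each), so that the fitted difference was 0.45 (95% interval -0.51 to 1.42, limma adjusted p = 1). PPDK averaged 6.37 ± 0.06 in Columbia and 6.80 ± 0.37 in Landsberg erecta (SD, n = 2 each), so that the fitted difference was -0.44 (95% interval -1.36 to 0.49, limma adjusted p = 1). The interval excluded a 2-fold change in either direction for 3 of the 45 members and did not for 42. With only 2 arrays a side, a difference that missed the threshold does not show equal levels.

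**Figure D4:**
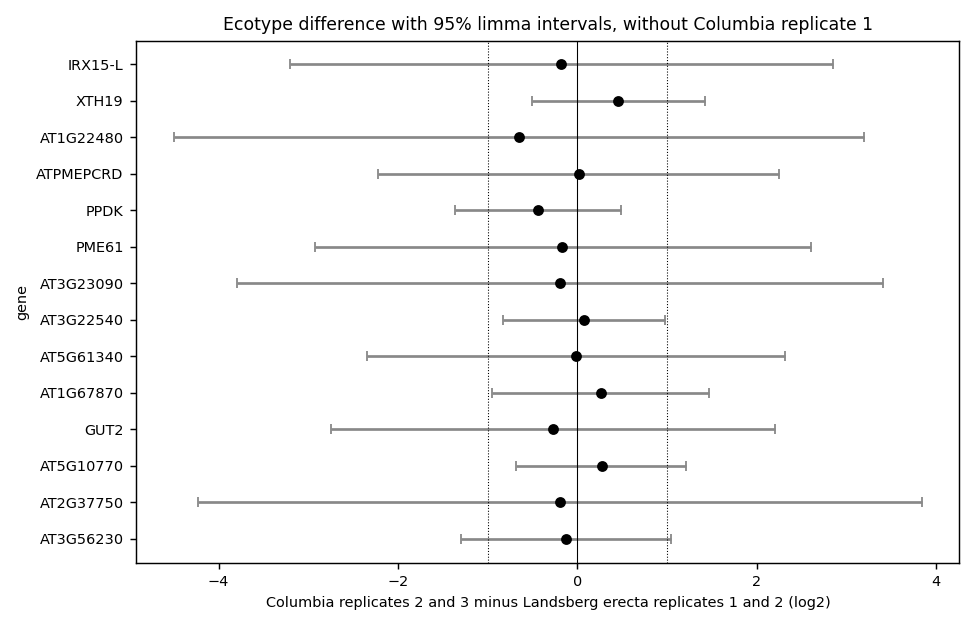
Difference between Columbia replicates 2 and 3 and Landsberg erecta replicates 1 and 2 (horizontal axis, log2) for the 14 named genes (vertical axis), as points with 95% limma intervals; dotted lines mark 2-fold changes. All 14 intervals include 0, and that of AT3G22540, from -0.83 to 0.98, lies inside the dotted lines.

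Which Columbia array stood for the ecotype decided the direction for many members. With Columbia replicate 3 as the only Columbia array, limma called 5 of the 45 members higher in Columbia (11.1%, against 2.75% of all probe sets). With Columbia replicate 2 as the only one, it called 4 members lower in Columbia (8.89%, against 1.15% of all probe sets). The 4 were also among the 5, so each was called in opposite directions. AT3G23090 differed by 0.85 (limma adjusted p = 0.0438) with Columbia replicate 3 and by -1.24 (limma adjusted p = 0.0359) with Columbia replicate 2. AT5G61340 differed by 0.65 (limma adjusted p = 0.0322) and -0.69 (limma adjusted p = 0.0359). All 5 had Landsberg erecta values within 0.1 of each other, 2 of them identical, and the lone Columbia array was assumed to vary like that pair.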

How the data were processed

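The authors deposited 1 table of log2 values for 22810 probe sets on 5 arrays. How the authors made these log2 values from the scans was not stated in the sources used here, and the scale was read from their range, 2.15 to 15.13. Per the labels' protocols, 2 ug of Trizol-extracted total RNA went into each biotin-labelled cRNA. The 64 controls were left out, so that 22746 were tested. Names came from the platform's annotation, with symbols replaced through the gene identifier by those of RefSeq (assembly TAIR10.1), which gave 1 gene for 13513 probe sets, several for 503 (not named) and none for 8730. No coordinates were used.

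Members were chosen by the rule in the opening. Members, lists, families and tests were chosen with earlier results of these data known. Of 124 listed loci, 15 were measured. A summed level is the log2 of the sum of a list's linear values. All named members are reported by name; other genes are the extremes of each list, members' relatives, and the 3 named genes nearest outside the threshold. Probe set IDs of unnamed members were picked after their values were seen.

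Ecotype differences were fitted with limma 3.58.1 in R 4.3.3 (lmFit, eBayes, 4 arrays, no covariate, adjusted over 22746 probe sets, threshold 0.05; 2 residual and 0.348 prior degrees of freedom), and the fit was tested on simulated data. Alternatives were 2 scalings, a filter on low means, other distances, other eBayes settings, all 5 arrays with and without the replicate number as a block, and left-out arrays. Added after the data were seen was a fit without probe sets at 1 value on the 4 arrays. Figures used matplotlib 3.10.9. The number of arrays limits precision.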

Additional observations from a re-analysis of the deposited data

How the results depend on the processing

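The set of 45 probe sets kept 41 under quantile normalization, where AT3G56230 fell just outside at -0.99, and 44 with equal array medians. It grew to 73 at a distance of 0.8, shrank to 15 at 1.5, and held 128 when Columbia replicate 1 was set against the mean of the others. Without single other arrays it ranged from 47 to 81, the highest without Columbia replicate 2. The 5 probe sets low on Landsberg erecta replicate 1 alone became 3 with equal array medians. The 7 list genes stayed between 5 and 7.

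Between ecotypes, 0 probe sets were called in each direction. At an adjusted p under 0.10 it was 1 higher in Columbia, and at an unadjusted p under 0.05 it was 261 higher and 230 lower. With single arrays left out, calls ranged from 440 to 626 higher and from 262 to 752 lower, and members called from 0 to 5 and from 0 to 4, where 1 array stood for an ecotype. The members' median difference of -0.020 lay between -0.621 and 0.694 when an array was left out. It was -0.652 with all 5 arrays and -1.288 when a replicate block was added. Both put back Columbia replicate 1, where the rule asks for low values. In the block fit, Columbia replicate 3 had no same-numbered Landsberg erecta array and did not enter the difference. The same fits gave ATPMEPCRD -0.79 and -1.51, and XTH19 -0.39 and -0.93. With single arrays left out, differences ranged from -1.06 to 0.69 for IRX15-L, -0.97 to 0.42 for GUT2, -0.90 to 0.56 for PME61, -0.62 to 0.65 for ATPMEPCRD and -1.24 to 0.85 for AT3G23090. The replicate block changed no call. Same-numbered arrays' deviations correlated at -0.024 and 0.077 across probe sets, and the labels do not say that numbers pair arrays.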

Other observations

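The opposite pattern, at least 1 log2 unit above every other array, held for 2 probe sets on Columbia replicate 1 and for 4 on Landsberg erecta replicate 1. The 2 on Columbia replicate 1 were AT3G46020 and AT4G26830. AT3G46020 had 5.01 on Columbia replicate 1, against 3.86 and 3.74 on Columbia replicates 2 and 3 and 3.86 and 3.84 on the Landsberg erecta arrays. AT4G26830 had 3.23 on Columbia replicate 1, against 2.22 on both other Columbia arrays and 2.22 and 2.17 on Landsberg erecta replicates 1 and 2. Both were chosen after their values were seen, and neither was tested.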
